A study of Gallus gallus with 16 samples.

Results

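The ON bipolar cell genes described here were GRM6, TRPM1, VSX1, PRKCA and CABP5, 5 genes taken by their symbols. A row of the count table was taken as a member if it carried 1 of these symbols and held at least 10 counts in at least 4 of the 16 libraries. TRPM1 (ENSGALG00000003849), VSX1 (ENSGALG00000029057) and PRKCA (ENSGALG00000003943) met this rule. These were 3 of the 17108 genes in the table, of which 11334 passed the same filter and were tested. GRM6 and CABP5 were not analysed here.

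Read counts came from the retina, retinal pigment epithelium (RPE) and choroid of the right eye, collected as one tissue from male Leghorn/New Hampshire chicks. There were 4 groups of 4 chicks, with 1 library per chick. Control chicks wore no lens and were separate birds, not the fellow eyes of treated birds. The other groups wore an occluder over the right eye for 7 days, a form deprivation that makes the eye elongate and become myopic, and were sampled with no recovery (0 h) or after 6 h or 24 h of normal vision. The sequenced chicks had been picked from a larger set for comparable axial length. The labels give post-hatch day 20 for the control, 0 h and 6 h chicks and day 21 for the 24 h chicks, which does not match the 7 days of occlusion from day 5 in the same labels. The 6 h chicks were collected later in the light phase than the control and 0 h chicks, so recovery and time of day cannot be told apart at 6 h. The 24 h chicks were older than the other groups, so recovery and age cannot be told apart in the pairs with 24 h. Per the paper, the 24 h chicks were collected at about the same hour as the control and 0 h chicks. At 24 h against 6 h, time of day therefore differed as well and cannot be told apart from recovery and age.

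Counts assigned to genes ran from 1553717 to 4816425 per library, with a median of 4016147. The library of 24 h chick 2 was the shallowest, and the members' differences at 24 h are therefore given with and without it. Levels are given as CPM, read counts per library size, where the size was scaled by TMM, a normalization that matches libraries on the bulk of their genes. A gene was called where its adjusted p passed a false discovery rate of 5% in edgeR's quasi-likelihood test, fitted over the 16 libraries and adjusted over the 11334 genes tested.

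Bipolar cells carry the photoreceptor signal to the inner retina, and ON bipolar cells are those that depolarize to light. In darkness, glutamate from photoreceptors binds the metabotropic receptor mGluR6, the product of GRM6, which acts through the G protein Go to hold the cation channel TRPM1 closed. Light lowers glutamate release, and the channel opens. In humans, loss of TRPM1, GRM6 or the synaptic protein NYX causes a congenital stationary night blindness that often comes with myopia. PRKCA encodes protein kinase C alpha, a standard marker of rod bipolar cells in mammals. VSX1 encodes a homeobox transcription factor that in the mouse is needed by cone bipolar cells, several OFF types among them, and CABP5 encodes a calcium-binding protein of bipolar cells.

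None of the measured members belongs to ON bipolar cells alone. TRPM1 is also made by melanin-producing cells, protein kinase C alpha is present in many tissues, and VSX1 is shared with OFF bipolar cells. With GRM6 not analysed, the assignment of these reads to ON bipolar cells could not be checked against that cell type's defining gene. In tissue collected whole, fewer cells of a type and less RNA per cell cannot be told apart.

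TRPM1, the channel at the end of the cascade, was read at 390 to 1678 counts per library. In the control chicks its level was 386.3, 302.2, 300.8 and 331.5 CPM, a mean of 330.2 ± 40.0 (SD, n = 4). In the 0 h chicks it was 359.6, 341.6, 289.2 and 346.5 CPM, a mean of 334.2 ± 31.0 (SD, n = 4). The control and 0 h chicks overlapped, with control chick 1 above each 0 h chick and 0 h chick 3 below each control chick. In the 6 h chicks TRPM1 stood at 298.8, 314.6, 277.8 and 220.9 CPM, a mean of 278.0 ± 41.0 (SD, n = 4). In the 24 h chicks it stood at 326.6, 259.1, 317.4 and 315.9 CPM, a mean of 304.7 ± 30.8 (SD, n = 4). Each 6 h chick lay below the median of the 0 h chicks, yet the groups overlapped, since 0 h chick 3 was below 6 h chicks 1 and 2.

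TRPM1 was not called in any of the 6 pairs of groups. At 6 h against 0 h its fold change was 0.832 (95% interval 0.710 to 0.974), or -0.27 ± 0.11 (SE) on the log2 scale, with an adjusted p of 0.301 and an unadjusted p of 0.0248. An exact two-sided permutation test of log2 CPM over the 70 ways to divide these 8 chicks gave p = 0.0857. At 6 h against control the log2 fold change was -0.25 ± 0.11, with an adjusted p of 0.438 and an unadjusted p of 0.0348. At 0 h against control it was 0.02 (95% interval -0.21 to 0.25), which leaves room for a change of up to 1.19-fold in TRPM1 after 7 days of occlusion. From 6 h to 24 h the log2 fold change was 0.14 (interval -0.09 to 0.37), and 0.21 without 24 h chick 2 (adjusted p 0.407). At 24 h it was -0.13 against 0 h and -0.11 against control, and these became -0.06 and -0.04 without 24 h chick 2.

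Of the 26 alternative settings tried for each pair, 1 called TRPM1 at 6 h against 0 h. No fit that left out 1 library did, and over these fits its log2 fold change ran from -0.33 to -0.17. The setting with the call had the main axis of variation between chicks as a covariate (described further on). There the log2 fold change was again -0.27, with an adjusted p of 0.0384. In that fit 7.24% of all genes were called, against 3.19% without the covariate. The covariate was itself computed from the spread of these libraries within groups and averages 0 in each group. It could thus barely move a difference between groups and mainly took spread out of the fit, so this call is no separate support. The same covariate gave no call at 6 h against control (adjusted p 0.0877). Melanin-producing cells, the other known source of TRPM1, were followed by TYR, TYRP1, DCT, PMEL, SLC45A2, OCA2, MLANA, MITF and SOX10, all of them measured. At 6 h against 0 h, 7 of these 9 genes had negative log2 fold changes. None was called, and 2 had an unadjusted p under 0.05, where 11.7% of all genes did. The summed level of the 9 was 813.2 to 975.3 CPM in the 6 h chicks and 950.5 to 1101 CPM in the 0 h chicks. At 24 h the sum was 1015 to 1259 CPM. TYRP1 was called higher at 24 h against 6 h (0.49, adjusted p 0.0496), where 1.94% of all genes were called in either direction and 0.794% higher. MITF was called lower at 24 h against 0 h (-0.32, adjusted p 0.0310), where 1.12% of all genes were called. The part of these cells in the TRPM1 values was not tested.

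VSX1, the homeobox factor, was read at 202 to 709 counts per library. Its level in the control chicks was 99.9, 88.0, 112.0 and 150.4 CPM, a mean of 112.6 ± 27.1 (SD, n = 4). In the 0 h chicks VSX1 stood at 119.6, 133.4, 114.6 and 124.1 CPM, a mean of 122.9 ± 7.99 (SD, n = 4). Control chick 4 was higher than each 0 h chick and the other 3 control chicks were lower, so the control group was the most spread out. The 6 h chicks had 126.7, 133.7, 149.7 and 162.1 CPM of VSX1, a mean of 143.0 ± 15.9 (SD, n = 4). The 24 h chicks had 121.6, 134.2, 142.7 and 137.5 CPM, a mean of 134.0 ± 8.98 (SD, n = 4). The 6 h chicks all lay above the median of the 0 h group and overlapped it only through 0 h chick 2, which exceeded 6 h chick 1.

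VSX1 was not called in any pair with all libraries in the fit. At 6 h against control its fold change was 1.27 (95% interval 1.06 to 1.52), or 0.34 ± 0.12 (SE) on the log2 scale, with an adjusted p of 0.243 and an unadjusted p of 0.0127. At 24 h against control the log2 fold change was 0.25 ± 0.13, with an adjusted p of 0.389, and 0.255 without 24 h chick 2. Both values moved with single chicks. Over the fits that left out 1 library, the log2 fold change ran from 0.24 to 0.52 at 6 h and from 0.15 to 0.43 at 24 h. The upper ends came without control chick 4, the highest of its group. In that fit VSX1 was called higher than in the remaining 3 control chicks at 6 h (0.52, adjusted p 0.00607) and at 24 h (0.43, adjusted p 0.0401). There 2.07% and 1.53% of all genes were called. Control chick 4 was not marked in the outlier check given further on. At 6 h against 0 h, where no control library enters, the log2 fold change was 0.22 ± 0.12 (adjusted p 0.545, exact permutation p = 0.0571). At 0 h against control it was 0.13 (interval -0.14 to 0.39), and 0.30 without control chick 4, with an adjusted p of 0.762. VSX1 differed by -0.09 from 6 h to 24 h and by 0.12 from 0 h to 24 h, or by -0.09 and 0.13 without 24 h chick 2.

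PRKCA, the kinase, had the fewest reads, with 30 to 148 counts per library. Its level was 33.3, 25.97, 23.9 and 23.3 CPM in the control chicks, a mean of 26.6 ± 4.60 (SD, n = 4). The 0 h chicks had 26.5, 27.9, 25.1 and 30.6 CPM of PRKCA, a mean of 27.5 ± 2.34 (SD, n = 4). These groups overlapped widely. In the 6 h chicks it was 21.8, 24.0, 27.5 and 25.8 CPM, a mean of 24.8 ± 2.45 (SD, n = 4). In the 24 h chicks PRKCA stood at 32.6, 19.9, 26.4 and 24.8 CPM, a mean of 25.96 ± 5.24 (SD, n = 4). The 24 h group spanned nearly the whole range of the gene, and its lowest value came from the shallow library.

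No pair of groups differed in PRKCA beyond the spread between chicks. The log2 fold changes ran from -0.15 (6 h against 0 h, 95% interval -0.46 to 0.15) to 0.10 (24 h against 6 h, interval -0.21 to 0.40). At 0 h against control the log2 fold change was 0.05 (interval -0.25 to 0.36), and at 24 h against control it was -0.0034 (interval -0.31 to 0.31). The smallest adjusted p was 0.775, at 6 h against 0 h, and after all libraries were thinned to the depth of the smallest this log2 fold change turned to 0.031. Without control chick 1 the value at 24 h against control was 0.12. Without 24 h chick 2, the 24 h values became 0.08 against control, 0.02 against 0 h and 0.18 against 6 h. The coefficient of variation of PRKCA between chicks was 17.3% in control, 8.50% at 0 h, 9.89% at 6 h and 20.2% at 24 h, where counting alone gives 10.0%, 9.79%, 9.76% and 11.6%. For VSX1 it was 24.0%, 6.50%, 11.1% and 6.70% in the same order, against 4.88%, 4.63%, 4.06% and 5.13% from counting. For TRPM1 it was 12.1%, 9.27%, 14.7% and 10.1%, against 2.85%, 2.81%, 2.92% and 3.4%. Counting error thus made up a larger share of the spread for PRKCA, the gene with fewest reads.

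**Figure D1:**
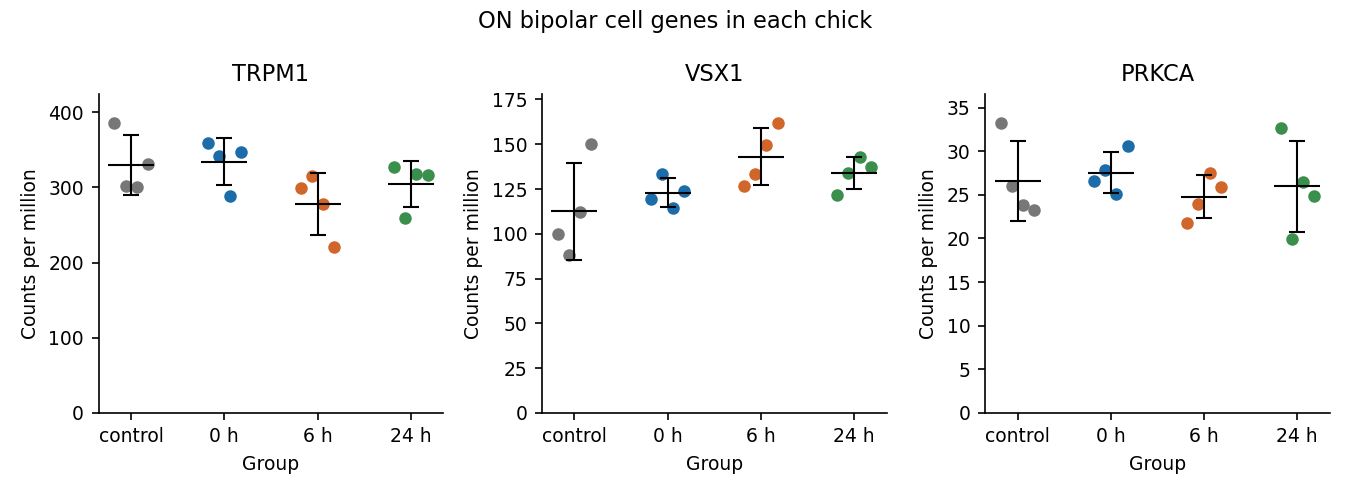
Each point is the level of TRPM1, VSX1 or PRKCA in 1 chick, in TMM-scaled CPM, by group, with a bar at the group mean and whiskers of 1 SD (n = 4). The 4 groups overlap for each gene; TRPM1 had its lowest mean at 6 h (278.0 CPM) and VSX1 its highest (143.0 CPM).

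Taking the 6 pairs as a whole, 0 of the 3 members were called in each. Among all genes tested, 0.0265% were called at 0 h against control, 3.19% at 6 h against 0 h, 1.94% at 24 h against 6 h, 1.12% at 24 h against 0 h, 2.74% at 6 h against control and 1.33% at 24 h against control. At an unadjusted p under 0.05, TRPM1 passed at 6 h against 0 h, where 11.7% of all genes did, and TRPM1 and VSX1 passed at 6 h against control, where 9.46% did. No member passed in the other 4 pairs, where 4.01% (0 h against control), 15.7% (24 h against 6 h), 9.55% (24 h against 0 h) and 13.8% (24 h against control) of genes did. The likelihood ratio test of edgeR, DESeq2 and limma-voom each called 0 of the 3 members in each pair. The test of all recovery groups together gave adjusted p-values of 0.400 for TRPM1, 0.60 for VSX1 and 0.818 for PRKCA, where 3.71% of genes were called, and 0 members had an unadjusted p under 0.05, where 14.8% of genes did. The groups of every member overlapped in every pair. Among all genes they did not overlap for 2.74% at 0 h against control, 8.55% at 6 h against 0 h, 7.75% at 24 h against 6 h, 6.33% at 24 h against 0 h, 6.74% at 6 h against control and 6.31% at 24 h against control. The pairs share libraries and are not independent of each other.

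By mean level, TRPM1 was ordered 0 h, control, 24 h and 6 h from high to low. VSX1 was ordered 6 h, 24 h, 0 h and control, and PRKCA 0 h, control, 24 h and 6 h. No neighbours in these orders differed past the threshold, and the smallest adjusted p among them was 0.570, for TRPM1 at 24 h against 6 h.

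**Figure D2:**
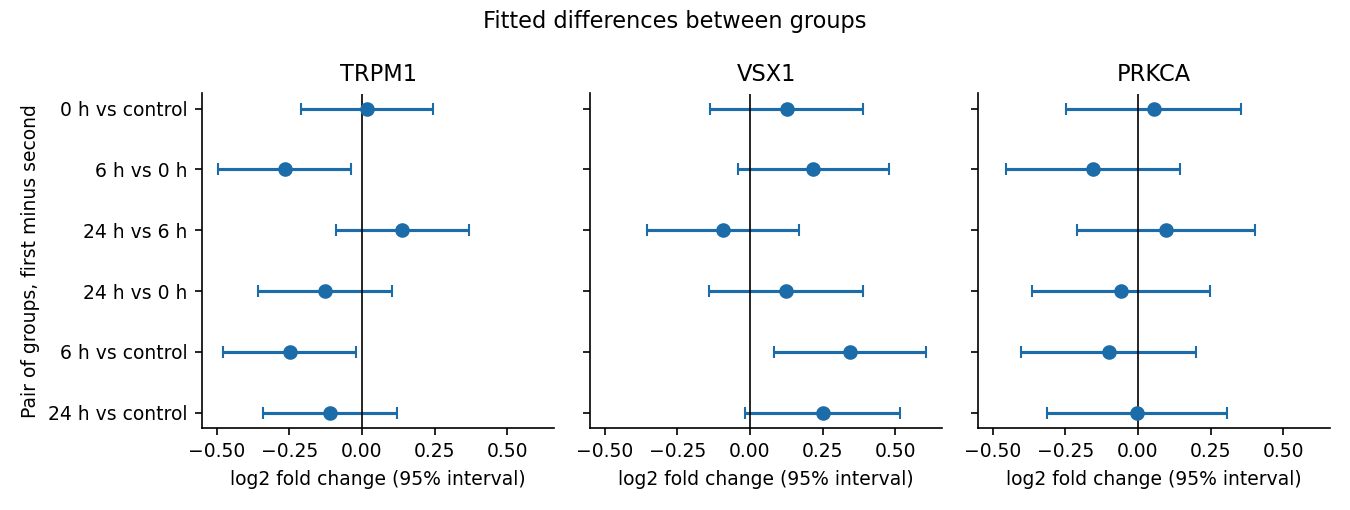
Fitted log2 fold changes (points) and 95% intervals (bars) of TRPM1, VSX1 and PRKCA in the 6 pairs of groups, the first-named minus the second. Intervals exclude 0 for TRPM1 at 6 h against 0 h and against control and for VSX1 at 6 h against control, before adjustment over all genes; no member passed after it.

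TRPM1 and VSX1 lay on opposite sides of 0 at 6 h, so their counts were compared within each library, a ratio that needs no scaling. This comparison was added after the data were seen. VSX1 to TRPM1 was 0.424, 0.425, 0.539 and 0.734 in the 6 h chicks, a mean of 0.530 ± 0.146 (SD, n = 4). It was 0.333, 0.391, 0.396 and 0.358 in the 0 h chicks, a mean of 0.369 ± 0.030 (SD, n = 4). The lowest 6 h chick thus stood above the highest 0 h chick. The log2 difference was 0.49, with an exact two-sided permutation p of 0.0286, the smallest that 4 chicks against 4 can give, and 0.257 after adjustment over the 18 ratios and pairs. In the control chicks the ratio was 0.259, 0.291, 0.372 and 0.454, overlapping both groups.

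PRKCA to VSX1 was lower at 6 h than at 0 h. It was 0.172, 0.179, 0.184 and 0.159 in the 6 h chicks and 0.222, 0.209, 0.219 and 0.246 in the 0 h chicks. Each 6 h chick was lower than each 0 h chick. The log2 difference was -0.37 (exact permutation p = 0.0286, adjusted p 0.257). In the control chicks the ratio ran from 0.155 to 0.333, wide enough to hold both groups. PRKCA to TRPM1 had overlapping groups in all 6 pairs, with a smallest exact permutation p of 0.429. With 0.0286 the smallest p possible, 1 or 2 ratios could not have passed the adjustment over 18, and these ratios were picked because TRPM1 and VSX1 had been seen to part at 6 h. Leaving out each chick in turn kept VSX1 to TRPM1 between 0.32 and 0.58 on the log2 scale and PRKCA to VSX1 between -0.40 and -0.32.

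**Figure D3:**
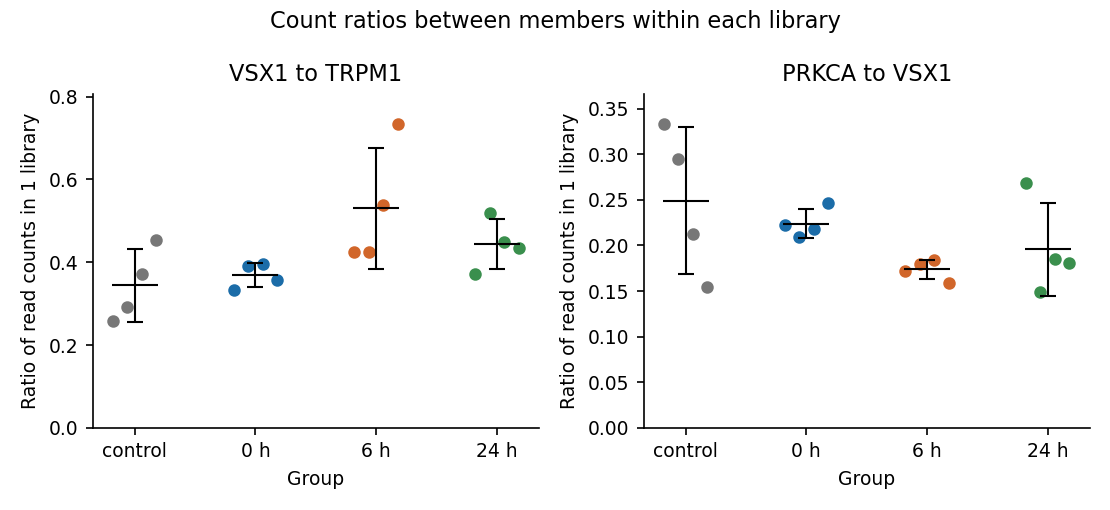
Ratios of read counts between 2 members within each library, by group; points are chicks, bars are means and whiskers 1 SD (n = 4). For VSX1 to TRPM1 the 6 h chicks (0.424 to 0.734) lie above the 0 h chicks (0.333 to 0.396), and for PRKCA to VSX1 they lie below them, while control and 24 h chicks spread across.

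No pair of members varied together past the threshold. After each group's mean was removed, Pearson's r over the 16 chicks was 0.455 for TRPM1 and PRKCA (Spearman's rho 0.25), -0.179 for TRPM1 and VSX1 (rho -0.382) and -0.190 for PRKCA and VSX1 (rho 0.006). Permuting chicks within groups 100000 times gave permutation p-values of 0.10, 0.572 and 0.591 for r, or 0.300, 0.591 and 0.591 after adjustment over the 3 pairs. For rho the p-values were 0.410, 0.220 and 0.988, and the smallest adjusted value was 0.615. Without the 2 chicks farthest from the median of PRKCA, or of VSX1 where it was paired with TRPM1, r was 0.245 for TRPM1 and PRKCA, -0.508 for TRPM1 and VSX1 and 0.0523 for PRKCA and VSX1. Single chicks moved these values too: r for TRPM1 and PRKCA was 0.232 without 24 h chick 2 and 0.656 without 6 h chick 4. None of these relations passed the test.

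The members were next set against the main axis between chicks of a group. This axis was the first principal component of the deviations of all tested genes from their group means, with the members left out, and it held 39.5% of that variance. Its sign was set so that VSX1 went up along it. TRPM1 had r = -0.733 with the axis (rho = -0.826, n = 16), and -0.667 without control chick 1 and 24 h chick 1, the chicks farthest out. PRKCA had r = -0.651 (rho = -0.482) and -0.298 without those 2 chicks, so its relation rested largely on them. VSX1 had r = 0.539 (rho = 0.60) and 0.480 without them. The chick 0 h 1, which was kept, lay nearly as far out as 24 h chick 1 (scores of -28.26 and -28.41). Permuting chicks within groups gave p-values of r of 0.00208 for TRPM1, 0.0235 for PRKCA and 0.127 for VSX1. Adjusted over the 3 members they were 0.00624, 0.0353 and 0.127. The r values are still read as descriptions only, since the axis follows many genes: the median size of r, sign aside, was 0.411 over all genes tested. An r at least as large in size was found for 16.7% of genes in the case of TRPM1, 23.5% for PRKCA and 35.3% for VSX1.

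The same axis was also set against other retinal gene groups. Over the 16 chicks its r was 0.954 with the mean of the bipolar transcription factors, 0.911 with Mueller glia markers, 0.663 with rod markers and -0.171 with cone markers. For ganglion, amacrine and horizontal cell markers it was 0.721, 0.68 and 0.604. For the mGluR6 cascade partners, the family relatives of the 5 genes and OFF bipolar genes it was 0.633, 0.619 and 0.568. It was 0.479 with the melanin-producing cell markers, -0.269 with RPE markers and -0.604 with leukocyte markers. With connective tissue and endothelium markers it was 0.244 and -0.458. With depth, as log2 counts on genes, r was -0.222, and with the percent of counts on genes it was 0.559. The marker genes were part of the axis, and their part in the members' relations was not tested.

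**Figure D4:**
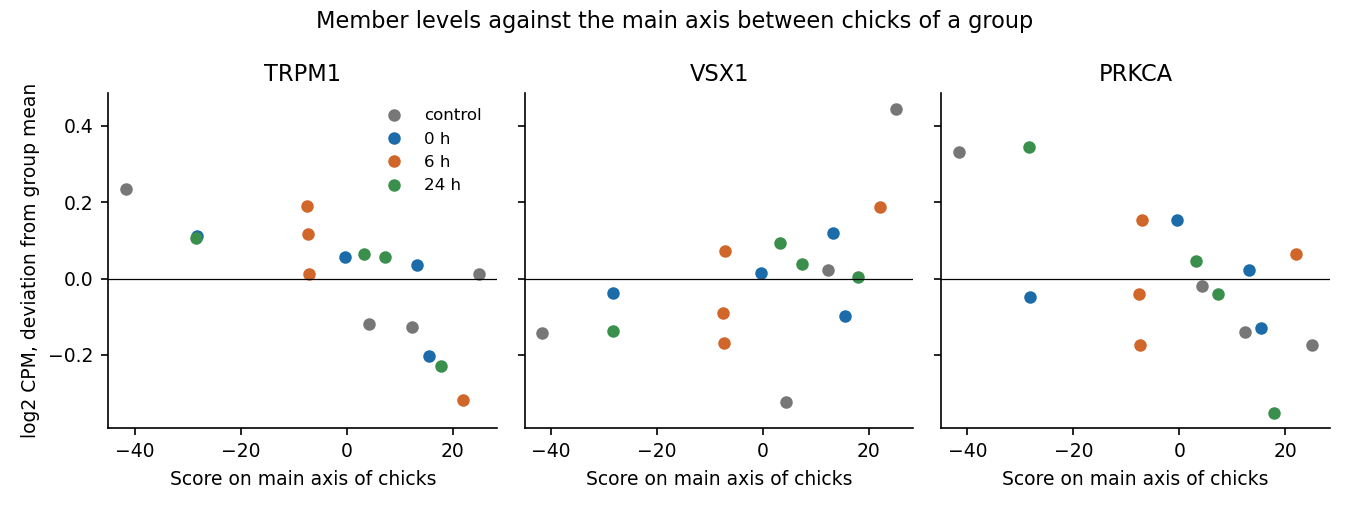
Deviation of each chick's log2 CPM from its group mean (vertical) against its score on the main axis between chicks of a group (horizontal, arbitrary units), for TRPM1, VSX1 and PRKCA; colours are groups. TRPM1 has r = -0.733 and VSX1 r = 0.539. PRKCA has r = -0.651, and -0.298 without control chick 1 and 24 h chick 1, the 2 chicks with the lowest scores.

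Transcription factors of bipolar cells and their precursors showed no call either. OTX2, ISL1, BHLHE23, PRDM8, LHX4, NEUROD4 and IRX6 were measured, 7 of the 11 on the list, and BHLHE22, PRDM1, IRX5 and SEBOX were not analysed. None of the 7 was called in any pair, where 0.0265% to 3.19% of all genes were. At an unadjusted p under 0.05, 4 passed at 24 h against 6 h (15.7% of all genes did) and 3 at 24 h against control (13.8%). The count was 2 at 6 h against 0 h (11.7%) and 1 at 0 h against control (4.01%). Leaving out control chick 1 called 1 of the 7, NEUROD4, lower at 6 h against 0 h (-0.70, adjusted p 0.0488). Control chick 1 is in neither group of that pair, and with all libraries the log2 fold change was also -0.70 (adjusted p 0.143). Leaving it out thus changed the spread in the fit and not the difference. With all libraries, 3.19% of all genes were called in that pair. The share without control chick 1 was not computed. All 7 had positive log2 fold changes at 0 h against control (median 0.545, against 0.00 over all genes), at 24 h against 6 h (0.895, against -0.02) and at 24 h against control (0.94, against 0.00). BHLHE23, IRX6, LHX4 and PRDM8 averaged only 2.43, 3.68, 5.31 and 8.33 CPM at 6 h. At 24 h against 6 h their log2 fold changes were 1.19, 1.08, 0.895 and 1.12, with SEs of 0.57, 0.48, 0.46 and 0.42. The better-read NEUROD4, ISL1 and OTX2 had 0.52 ± 0.24, 0.19 ± 0.11 and 0.14 ± 0.10 (SE). At 6 h against 0 h, 6 of the 7 were negative (median -0.60, against 0.00). The summed level overlapped between all groups, at 403.9 to 496.4 CPM in control, 466.9 to 587.2 at 0 h, 424.5 to 500.0 at 6 h and 447.0 to 699.5 at 24 h. These genes are not independent of each other, as their mean followed the main axis between chicks closely.

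OTX2, which drives photoreceptor and bipolar fate, was the highest of these factors, at 272.7 ± 16.7 CPM in control, 303.0 ± 27.4 at 0 h, 307.9 ± 16.8 at 6 h and 342.1 ± 59.5 at 24 h (SD, n = 4). It was named for its level, after its values were seen. Retina, RPE and choroid were collected as one tissue, so the cells that gave the reads of these 7 factors were not told apart. Within groups, each of the 7 factors had a negative r with TRPM1 (-0.709 to -0.233) and with PRKCA (-0.770 to -0.163), and each had a positive r with VSX1 (0.246 to 0.749). The 7 are close to 1 measure, since their mean had r = 0.954 with the main axis. TRPM1, PRKCA and VSX1 had r of -0.733, -0.651 and 0.539 with that axis. Mueller glia and ganglion cell markers also followed it (0.911 and 0.721), so the shared sign was not shown to be particular to bipolar factors. With the 9 melanin-producing cell markers the r of TRPM1 had a median of 0.294, from -0.721 for PMEL to 0.645 for MLANA, with 0.615 for OCA2 and 0.571 for SLC45A2. The r of PRKCA with them had a median of 0.305 (-0.657 to 0.677) and that of VSX1 a median of 0.0562 (-0.340 to 0.508). These values are over 16 chicks and carry no test.

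Among partners of the mGluR6 cascade, GNAO1, GNG13, RGS7, RGS7BP, NYX, LRIT3 and ELFN1 were measured, 7 of 12. GNB3, GNB5, RGS11, GPR179 and PCP2 were not analysed. GNAO1 and GNG13 encode subunits of the G protein, RGS7 and its anchor RGS7BP belong to the complex that switches it off, and NYX, LRIT3 and ELFN1 are leucine-rich repeat proteins of photoreceptor synapses. Of these 7 genes, 1 was called in 1 of the 6 pairs, RGS7 at 6 h against 0 h. In that pair 3.19% of all genes were called in either direction and 2.00% were called higher. Over the 6 pairs the share called in either direction ran from 0.0265% to 3.19%. The 1 call among 7 genes and 6 pairs was not tested against these shares.

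RGS7 stood at 169.6, 198.3, 187.0 and 180.4 CPM in the 6 h chicks, a mean of 183.8 ± 12.0 (SD, n = 4). In the 0 h chicks it was 146.2, 159.9, 144.6 and 136.7 CPM, a mean of 146.8 ± 9.63 (SD, n = 4). Each 6 h chick was higher than each 0 h chick. RGS7 rose by 0.33 ± 0.08 (SE) on the log2 scale, with an adjusted p of 0.0368. Leaving out any of 6 libraries (0 h chicks 1, 3 or 4, or 6 h chicks 2, 3 or 4) ended the call, with adjusted p-values up to 0.141, while the log2 fold change stayed between 0.29 and 0.37 over all leave-outs. The control chicks had 170.4, 137.0, 132.5 and 156.2 CPM, and the difference at 6 h against control (0.30) had an adjusted p of 0.065, or 0.0175 without control chick 1. In that pair 2.74% of all genes were called with all libraries, and the share without control chick 1 was not computed. At 24 h RGS7 stood at 156.0 ± 11.1 CPM, and the step from 6 h was -0.24, with an adjusted p of 0.173. RGS7 is used by many neurons, ON bipolar cells among them.

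The other 6 partners had log2 fold changes of -0.28 to 0.10 at 6 h against 0 h. Groups did not overlap for 2 of the 7 partners in that pair (RGS7 higher, ELFN1 lower at -0.13), where 8.55% of all genes had no overlap. At 24 h against 6 h they did not overlap for 3 (NYX, ELFN1 at 0.29 and GNAO1 at 0.22, all higher). At 24 h against control they did not overlap for ELFN1 (0.30, higher, adjusted p 0.261), where 6.31% of all genes had no overlap. NYX, the nyctalopin protein that holds TRPM1 at the dendrite tip, had 57.0 ± 4.99 CPM at 0 h, 47.0 ± 4.20 at 6 h and 59.6 ± 6.41 at 24 h (SD, n = 4). Its 24 h chicks were all above its 6 h chicks, with a log2 fold change of 0.32 and an adjusted p of 0.109, and 7.75% of all genes had no overlap in this pair. NYX, ELFN1 and GNAO1 were given values after these were seen. The summed level of the 7 partners overlapped between groups, from 712.1 CPM in a 0 h chick to 835.9 CPM in a control chick.

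**Figure D5:**
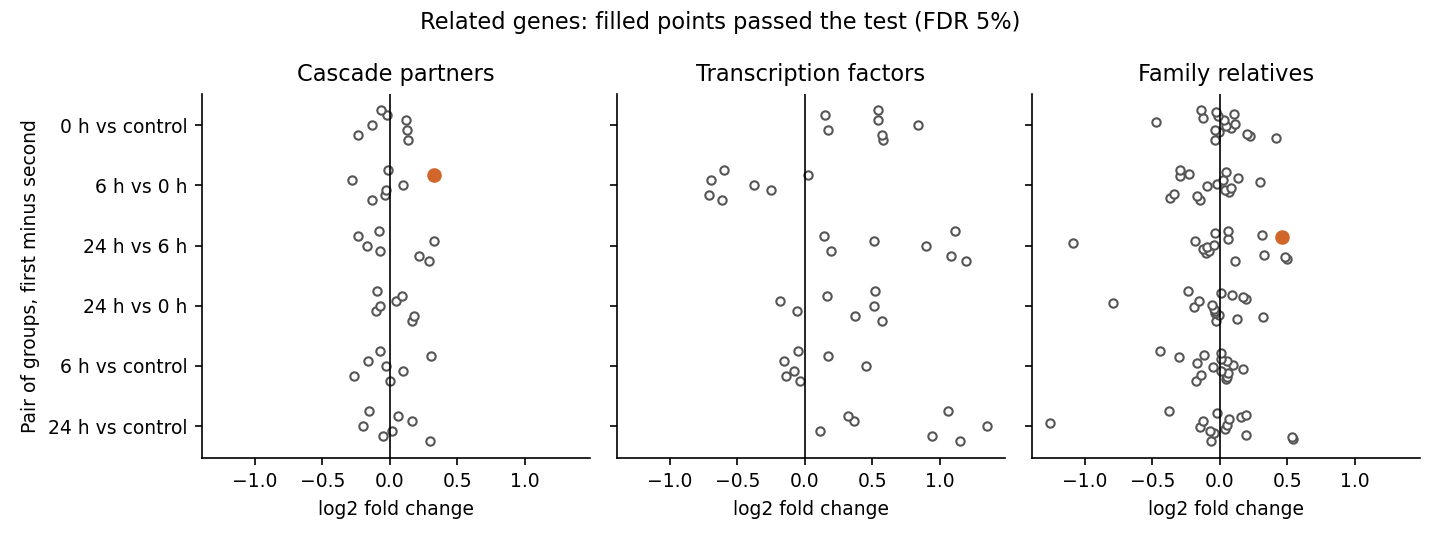
Log2 fold changes of the genes tested on each list in the 6 pairs of groups, the first-named minus the second, for 7 cascade partners, 7 bipolar transcription factors and 16 family relatives of the 5 genes; filled points passed the test at a false discovery rate of 5%. The filled points are RGS7 at 6 h against 0 h (0.33) and PRKCZ at 24 h against 6 h (0.46), and the transcription factors lie right of 0 at 0 h against control, 24 h against 6 h and 24 h against control.

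Family relatives of the 5 genes were the group III glutamate receptors, TRPM channels, protein kinases C and CaBP proteins, with 16 of 20 tested. PRKCZ, an atypical protein kinase C that works in cell polarity, was the one relative called, at 24 h against 6 h. In that pair 1.94% of all genes were called in either direction and 0.794% were called higher. The 1 call among 16 relatives and the 6 pairs was not tested against such shares. PRKCZ stood at 118.7, 122.9, 123.4 and 115.1 CPM in the 24 h chicks and at 100.7, 82.7, 84.9 and 79.3 CPM in the 6 h chicks. The groups did not overlap. PRKCZ rose by 0.46 ± 0.09 (SE) on the log2 scale (adjusted p 0.00668), and it was called in all 16 fits that left out 1 library, with a largest adjusted p of 0.0326. The control and 0 h means lay between, at 107.5 ± 8.00 and 106.2 ± 10.1 CPM (SD, n = 4). Without 6 h chick 1, PRKCZ was also called lower at 6 h against 0 h (-0.37, adjusted p 0.0207) and against control (-0.38, adjusted p 0.0191). With all libraries PRKCZ was called in neither pair (adjusted p 0.0811 and 0.0712), where 3.19% and 2.74% of all genes were called. The shares without 6 h chick 1 were not computed. PRKCH, another relative, missed the threshold at 24 h against control (log2 fold change -1.26 ± 0.31 (SE), adjusted p 0.0501), where 1.33% of all genes were called. It had few reads, with means of 2.25 CPM at 24 h and 5.13 CPM in control. PRKCH was called lower in 5 of the leave-outs. The share of all genes called was computed for only 1 of these, the fit without control chick 4 (1.53%). PRKCA differed by 0.10 at 24 h against 6 h and by -0.0034 at 24 h against control, and was called in neither.

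Genes known from OFF bipolar cells were also followed. Whether they are particular to those cells in this tissue was not tested. None of the 5 tested (GRIK1, SYT2, GRIA4, NETO1 and FEZF1, with TACR3 not tested) was called in any pair, where 0.0265% to 3.19% of all genes were. SYT2 and FEZF1 had few reads, with means of 4.39 and 2.81 CPM at 6 h. At an unadjusted p under 0.05, 1 passed at 0 h against control, where 4.01% of all genes did. None passed in the other 5 pairs, where 9.46% to 15.7% of all genes did. The median log2 fold change of the 5 at 6 h against 0 h was 0.10, and their summed level at 6 h (726.2 to 807.6 CPM) overlapped that at 0 h (675.9 to 743.9 CPM). GRIK1 made up most of that sum, with means of 529.5 CPM at 6 h and 493.6 CPM at 0 h. Cone markers, by contrast, had 5 of 7 called lower at 6 h against 0 h, where 1.19% of all genes were called lower, with a summed level of 4461 to 5011 CPM at 6 h and 6071 to 6886 CPM at 0 h. The part of photoreceptor RNA in the members' values was not tested.

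The genes whose pattern over the 16 chicks was most like each member were picked by Pearson's r of log2 CPM among 10374 tested genes with a symbol. For TRPM1 they were KIAA0556 (r = 0.834), ARID4B (0.80) and MCEE (0.799), where the 99th percentile over all genes was 0.691. VSX1 was most like MTUS2 (0.873), DDX49 (0.855) and TNIK (0.832), with a 99th percentile of 0.649. PRKCA was most like CLPX (0.863), FAM46C (0.858) and WDR35 (0.853), with a 99th percentile of 0.661. No member was among the nearest genes of another. The likeness is a description and carries no test.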

How the data were processed

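Poly(A) RNA libraries from 16 chicks were prepared with a stranded kit and sequenced by the authors. Per the labels and the study's methods, reads were trimmed with cutadapt and Trimmomatic, aligned by TopHat2 and Bowtie2 to GalGal4, and assigned to genes by HTSeq; versions and the strand setting are not given in the sources used here. The deposited values were whole-number counts per gene, with no normalization. Lines naming no gene (6) were left out; 54.1% to 58.1% of a library's counts fell on genes.

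A gene was kept where 4 or more libraries held 10 or more counts (11334 of 17108). Groups came from the sample labels. The quasi-likelihood test of edgeR 4.0.16 was fitted in R 4.3.3 over the 16 libraries with TMM factors and adjusted by Benjamini-Hochberg over all genes tested, at 5%. CPM used the same factors; log2 CPM used a prior count of 2. Intervals cover 95%. The alternatives were DESeq2 1.42.0 and limma 3.58.1 (voom), edgeR's likelihood ratio test, other scalings and filters, the compared groups alone, thinning to the smallest library, the main axis between chicks as a covariate, and leaving out each library. The scripts were tested on simulated data. Named genes were the members, list genes called in at least 1 pair, and the 3 genes most alike to each member; NEUROD4, OTX2, NYX, ELFN1, GNAO1, PRKCH and the neighbours of TRPM1 were added after their values were seen. The members and lists were chosen with earlier results of these data known, and 1 list gene is not reported here. Adjusted p-values weigh each difference between groups against the spread between chicks. No 2 libraries were identical (highest correlation of log2 CPM 0.987). In RefSeq's annotation of another build (GRCg7b), APOH lies inside PRKCA and CEP112 overlaps it, and a long noncoding RNA and microRNA genes lie inside TRPM1, so counts of PRKCA and TRPM1 may hold shared reads. No sequences were used.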

Additional observations from a re-analysis of the deposited data

Results flagged for a closer look

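TRPM1 in 24 h chick 2, at 259.1 CPM, lay far below the other 3 chicks of its group (315.9 to 326.6 CPM). Its gap to the nearest of them was larger, against the range of the group, than Dixon's 95% critical value for 4 samples allows. This library was also the shallowest, with 1553717 counts on genes. It was 1 of 32 group checks, and chance alone marks about 1 in 20.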

How the results depend on the processing

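The count of members called was 0 in each pair of groups and in the joint test, and it changed in 2 settings. It was 1 at 6 h against 0 h (TRPM1) with the axis between chicks as a covariate, where 7.24% of all genes were called. Over the leave-outs it ran from 0 to 1 at 6 h against control and at 24 h against control (VSX1 without control replicate 4), and from 0 to 0 elsewhere. Among log2 fold changes, direction changed for PRKCA and TRPM1. After thinning, PRKCA stood at -0.041 (0 h against control), 0.031 (6 h against 0 h) and -0.040 (24 h against 6 h). At 24 h against control PRKCA was 0.012 with DESeq2, 0.026 with limma-voom, 0.0055 with the likelihood ratio test and 0.0056 with RLE factors. Over the leave-outs, TRPM1 at 0 h against control ran from -0.023 to 0.10. PRKCA ran from -0.0079 to 0.18 (0 h against control), -0.030 to 0.18 (24 h against 6 h), -0.19 to 0.024 (24 h against 0 h), -0.16 to 0.022 (6 h against control) and -0.13 to 0.12 (24 h against control). The correlation of TRPM1 and VSX1 ran from -0.381 to 0.0207 and that of VSX1 and PRKCA from -0.296 to 0.0369. RGS7 also missed the threshold with no filter (adjusted p 0.0544) and after thinning (0.0894). PRKCH, a relative with few reads (a mean of 2.25 CPM at 24 h), was not called with all libraries. It was called lower at 24 h against control with the 1 CPM filter (-1.26, adjusted p 0.0497) and in 5 leave-outs. The cause of these changes was not tested. Depth and 4 chicks per group left room for changes of up to 1.19-fold in TRPM1, 1.31-fold in VSX1 and 1.28-fold in PRKCA at 0 h against control. No paired analysis was possible because each chick gave 1 library and belonged to 1 group.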

Other observations

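Near TRPM1 in RefSeq's annotation of GRCg7b, a build other than that of the counts, several neighbouring genes varied with it over the 16 chicks. Among the 16 tested genes within 10 protein-coding genes of TRPM1, the median r was 0.453 (range -0.104 to 0.799), with 0.568 for MTMR10 and 0.665 for KLF13 next to it, 0.618 for FAN1 and 0.799 for MCEE, 4 genes away. The neighbours named are those with the highest r, and others had r near 0, such as ANXA2 (0.012) and APBA2 (0.081). Neighbours of VSX1 (12 genes) had a median r of -0.0259 and those of PRKCA (13 genes) of -0.0162. Over all genes tested the median r was 0.003 for TRPM1, -0.0129 for VSX1 and 0.0083 for PRKCA. These r values were not centred on group means. The pattern was noticed after the values were seen and was not tested.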
